A study of Homo sapiens with 60 samples.

Results

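Palmul-tang is a traditional herbal decoction made by joining 2 older formulas. It was compared with those 2 parents, Sagunja-tang and Samul-tang, in HepG2 cells, an established human liver cancer line. The comparison took the 3 Palmul-tang libraries and the 18 parent libraries named by their sample codes, 21 of the 60 labelled libraries of the series. Palmul-tang had 1 library at each of 500, 100 and 20 µg/mL. Sagunja-tang and Samul-tang had 3 libraries each at 500, 100 and 20 µg/mL. The cells were exposed for 24 h, and RNA was sequenced from the whole culture. For some of the named genes, the level in 3 vehicle libraries is also given. Their labels state 0.1% DMSO while the design text of the series states 2%, so the strength of the vehicle is uncertain. For each gene the question was whether Palmul-tang lay nearer one parent, between them, or outside both.

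In Korean and Chinese medicine Sagunja-tang is used as a tonic for qi and Samul-tang as a tonic for blood, and Palmul-tang is prescribed where both are wanted. HepG2 cells keep many hepatocyte programmes. Among them are the response to low oxygen, in which HIF transcription factors bind a short ACGTG core and raise glycolytic enzymes and glucose transporters, and the BMP-SMAD pathway, which drives hepcidin (HAMP), the hormone that limits iron export. They also carry the aryl hydrocarbon receptor, which induces CYP1A1, and the NRF2 pathway, which induces aldo-keto reductases and other detoxifying enzymes.

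The genes that stood above both parents at all doses of Palmul-tang included known hypoxia genes. For some of the genes above both parents and for CA9, stretches of promoters are therefore shown. The ACGTG core, or CACGT where it lies on the other strand, is in capitals. The stretches were picked among those that hold the core, so its presence in them is not a result. Each is 120 bases long and lies upstream of a RefSeq transcription start on GRCh38.p14, written 5′ to 3′ on the strand of the gene. The BNIP3 stretch covers bases 134 to 15 before the start, moved to hold the core, and the others bases 120 to 1.
PFKFB3, chr10:6202812-6202931, plus strand: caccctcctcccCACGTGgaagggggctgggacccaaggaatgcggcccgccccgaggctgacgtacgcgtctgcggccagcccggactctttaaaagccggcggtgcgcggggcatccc
PDK1, chr2:172555970-172556089, plus strand: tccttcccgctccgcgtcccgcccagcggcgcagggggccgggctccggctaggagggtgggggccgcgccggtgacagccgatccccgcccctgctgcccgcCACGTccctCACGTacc
BNIP3, chr10:131981938-131982057, minus strand: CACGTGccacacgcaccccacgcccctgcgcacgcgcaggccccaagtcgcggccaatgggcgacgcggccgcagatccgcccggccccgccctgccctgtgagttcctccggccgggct
PPFIA4, chr1:203026371-203026490, plus strand: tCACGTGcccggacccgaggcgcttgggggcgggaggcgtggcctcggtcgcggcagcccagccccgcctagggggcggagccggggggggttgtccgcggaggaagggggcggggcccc
CA9, chr9:35673808-35673927, plus strand: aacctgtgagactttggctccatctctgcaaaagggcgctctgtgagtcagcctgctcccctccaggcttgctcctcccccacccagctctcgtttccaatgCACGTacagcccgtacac
The first 4 genes were above both parents, and CA9 was the only gene placed towards 1 parent. CACGTG reads the same on both strands and therefore holds the core on each. The promoter table held 14 of the 20 genes above both parents (SLC2A3, NDRG1, IGFBP1, ANKZF1 and PLEKHA2 were among the others). In windows of 300 bases, from 250 before to 50 after a start, 9 of these 14 genes had the core on either strand (64.3%), against 31.8% of the 10949 tested genes and 24.9% of all 27305 genes in the table. A match describes the letters only, and genes with several starts had more than 1 window.

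A second sequence is shown because hepcidin was the gene with the widest gap between the parents at 500 µg/mL. The hepcidin promoter is known for a BMP response element with the core GGCGCC, in capitals in these 120 bases before its start.
HAMP, chr19:35282408-35282527, plus strand: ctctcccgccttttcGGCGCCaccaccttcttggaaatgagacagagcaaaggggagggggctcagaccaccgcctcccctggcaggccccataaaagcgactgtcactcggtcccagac
GGCGCC, which also reads the same on both strands, occurred in the windows of 22.0% of all genes in the table. Among the 10949 tested genes the share was 35.6%. The table held 25 of the genes called as different between the parents at 500 µg/mL, and 4 of these 25 had GGCGCC.

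Each of the 21 formula and 3 vehicle libraries held between 21199549 and 34412234 expected counts, 13 to 18.8% of them from the mitochondrial genome. All 15 hepatocyte markers were detected, with a summed level of 63040 to 69407 CPM (counts scaled to a common library total) in Palmul-tang, 63994 to 71500 in Sagunja-tang, 60146 to 70073 in Samul-tang and 66458 to 68849 in vehicle. The 16 markers of other cell types summed to 1603 to 1829 CPM in Palmul-tang, 1513 to 1789 in Sagunja-tang, 1530 to 1814 in Samul-tang and 1440 to 1573 in vehicle. Most of that sum was LYZ, at up to 1572 CPM. EPCAM, CD68 and ACTA2 reached 146, 82.8 and 74.1 CPM, PDGFRB 8.07 and PECAM1 2.54. PTPRC and KRT5 had no count, and 7 of the 16 never passed 0.1 CPM. The Samul-tang 20 µg/mL replicate 2 library stood apart from its 2 replicates, with distances up to 0.445 (root mean square difference in log2 CPM) against 0.341 to 0.419 for all other groups of replicates, and slopes and counts of calls that move with it are given with and without it. The labels do not say whether replicates were separate cultures, and the p-values then rest on library-to-library spread alone, which may be technical. Palmul-tang libraries carry the first code number 8 and all parent libraries the number 7. What the number stands for is not given, and a difference in level between Palmul-tang and its parents cannot be told apart from a difference between these code sets. The titles of the Palmul-tang, parent and vehicle libraries all carry the same batch label, BatchB, which is not explained further. Slopes over dose compare libraries within 1 code set.

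Palmul-tang lay above both parents in a small group of genes, below both in none, and between them in none by the test. Of 15766 genes tested with edgeR's quasi-likelihood test, with dose as a block, 20 (0.127%) were higher in Palmul-tang than in Sagunja-tang and than in Samul-tang at a Benjamini-Hochberg adjusted p under 0.05. All 20 are protein coding, and in all 20 every Palmul-tang library exceeded the 6 parent libraries of its dose. Among all genes tested this held for 78 (0.495%). In 22 genes (0.14%) every Palmul-tang library was below the 6 parent libraries of its dose, although none was called below both. Against Sagunja-tang alone 39 genes (0.247%) differed and against Samul-tang alone 22 (0.14%), all of them higher in Palmul-tang. Against the midpoint of the parents 37 genes (0.235%) differed, 36 higher and 1, the pseudogene PDPK2P, lower (log2 difference -0.60, adjusted p = 0.0266). At an unadjusted p under 0.05 the counts were 783 against Sagunja-tang (4.97%) and 593 against Samul-tang (3.76%), and DESeq2 placed 3 genes below both. With no filter on low counts 36 genes were below both, 35 of which had passed the filter, and 64 of 175 calls against Sagunja-tang and 71 of 153 against Samul-tang were lower in Palmul-tang. The error of a Palmul-tang mean rests on the spread among all 21 libraries, since no dose of it was repeated. Without the Palmul-tang 500, 100 or 20 µg/mL library 11, 8 or 17 genes were above both, all of them among the 20. Without the Samul-tang 20 µg/mL replicate 2 library there were 30, of which 18 were among the 20.

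The gene that stood out most among those with at least 2 CPM on average was PFKFB3, the inducible kinase that makes fructose 2,6-bisphosphate and so speeds glycolysis. Its level was 12.9, 13.4 and 8.6 CPM in the Palmul-tang libraries at 500, 100 and 20 µg/mL. In Sagunja-tang it was 5.67, 4.89 and 3.85 CPM at 500, 4.57, 5.61 and 4.32 at 100, and 4.05, 3.45 and 3.46 at 20 µg/mL. In Samul-tang it was 6.21, 5.41 and 5.21 CPM at 500, 5.97, 4.94 and 3.73 at 100, and 5.49, 4.55 and 3.9 at 20 µg/mL. No parent library reached the lowest Palmul-tang library, and the vehicle libraries were lower still at 2.46, 2.93 and 2.37 CPM. The log2 difference was 1.38 ± 0.11 (SE) from Sagunja-tang (adjusted p = 4.73e-08, edgeR) and 1.19 ± 0.11 from Samul-tang (adjusted p = 1.16e-06).

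PFKFB4, a second kinase of that family and also a HIF target, was at 40.4, 40.6 and 33.7 CPM in Palmul-tang in the order of falling dose. It lay between 20.1 and 26.6 CPM in the 9 Sagunja-tang libraries, between 22 and 27.6 in the 9 Samul-tang libraries and between 18.2 and 21.6 in vehicle. The groups did not overlap, and the log2 differences were 0.74 ± 0.07 and 0.63 ± 0.08. PDK1, a kinase that inhibits pyruvate dehydrogenase, was at 65.9, 71.8 and 55.5 CPM, against 39.8 to 53.2 in Sagunja-tang, 36.7 to 57.5 in Samul-tang and 35.4 to 36.7 in vehicle. Here the lowest Palmul-tang library, at 20 µg/mL, lay within the Samul-tang range over all doses but above every parent library of its own dose. BNIP3, a mitophagy receptor, was at 168, 170 and 157 CPM, against 122 to 137 and 124 to 154. SLC2A3, the GLUT3 glucose transporter, was at 190, 207 and 178 CPM, against 136 to 170 and 141 to 164. NDRG1, a stress-induced gene and common hypoxia marker, was at 70.7, 71 and 68 CPM, against 36.2 to 48.4 and 43.8 to 56.5. These 6 genes were the members of the hypoxia and glycolysis list that lay above both parents.

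**Figure D1:**
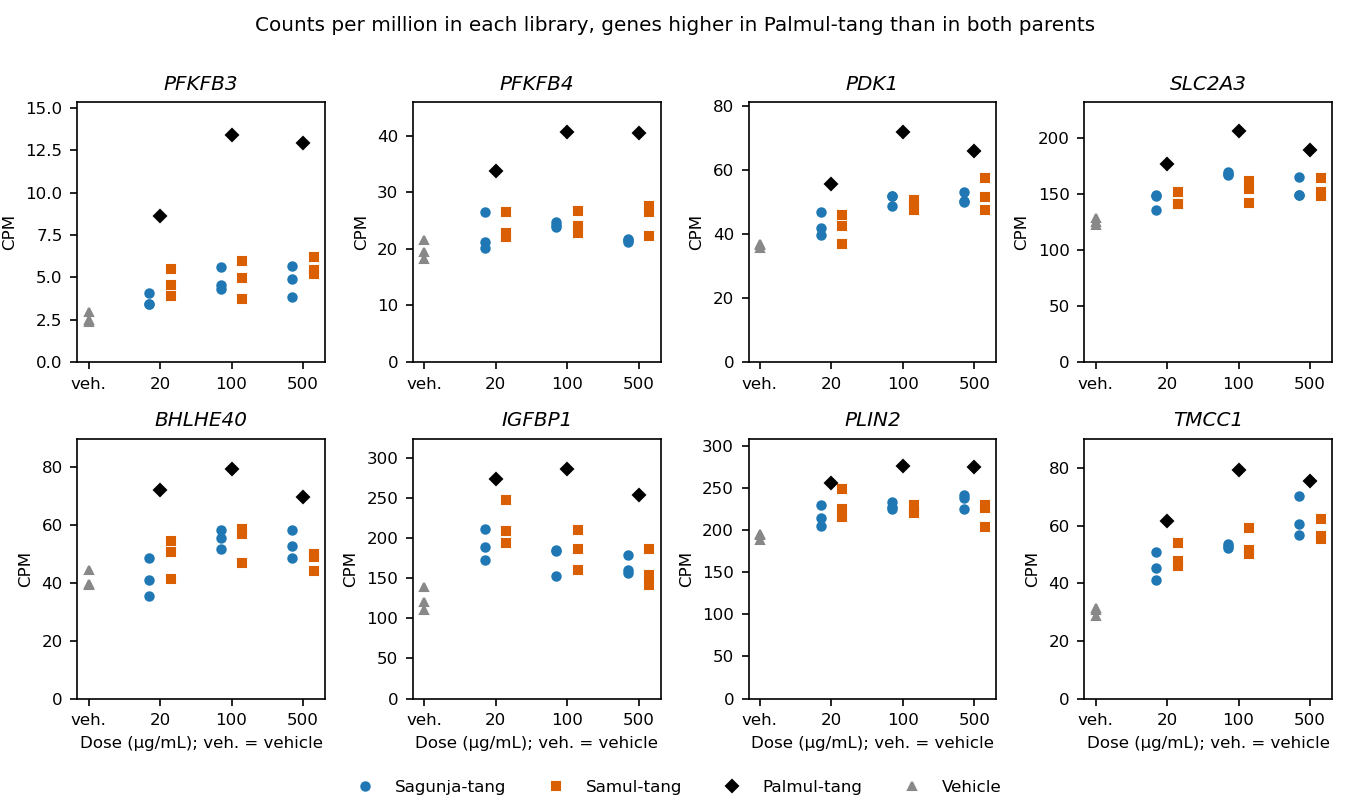
CPM (vertical axis, from 0) of 8 of the 20 genes above both parents, in each library, by dose (horizontal axis, vehicle at the left). Each point is 1 library, and the Palmul-tang point lies above the 6 parent points of its dose in all 8 panels, including at 20 µg/mL.

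The other 14 genes above both parents were not on that list, although several are known to respond to low oxygen. IGFBP1, a liver-made carrier of insulin-like growth factors, was at 254, 286 and 273 CPM in Palmul-tang, 153 to 211 in Sagunja-tang, 142 to 247 in Samul-tang and 110 to 139 in vehicle. For this gene every parent library sat above the vehicle libraries, and every Palmul-tang library above the parents. BHLHE40, a repressor that ties the clock to hypoxia, was at 69.6, 79.3 and 72.1 CPM, against 35.5 to 58.3 in Sagunja-tang and 41.1 to 58.4 in Samul-tang. PLIN2, the coat protein of lipid droplets, was at 275, 276 and 256 CPM, against 204 to 241 and 204 to 249. LOX, which cross-links collagen, was at 51.8, 58.9 and 52 CPM, against 37.7 to 49.5 and 35.1 to 47.

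Other genes of the 20 are listed here by a known role, whether or not they also respond to low oxygen. TUBB1, a beta-tubulin best known from platelets, was at 11.3, 13.2 and 9.61 CPM in Palmul-tang, against 4.64 to 7.09 in Sagunja-tang and 5.79 to 7.33 in Samul-tang (log2 differences 0.90 ± 0.09 and 0.75 ± 0.09). TNS1, which links integrins to actin, was at 17.7, 18.6 and 15.3 CPM, against 7.21 to 11.9 and 9.28 to 14.1. CHST15, a sulfotransferase for chondroitin sulfate, was at 42.5, 46.4 and 36 CPM, against 23.2 to 29.6 and 26.4 to 33.2. PLEKHA2, an adaptor that binds phosphoinositides, was at 7.61, 10.1 and 8.38 CPM, against 5.01 to 6.68 and 4.6 to 6.65. A further 5 were the creatine transporter SLC6A8, the endoplasmic reticulum protein TMCC1, the ribosome quality control factor ANKZF1, the small membrane protein SMIM3 and the scaffold protein PPFIA4. PPFIA4 had the largest difference from the midpoint (log2 1.55) but the lowest level, at 2.3, 1.53 and 1.68 CPM against 0.201 to 0.828 in Sagunja-tang and 0.386 to 0.913 in Samul-tang. SMIM3 alone of the 20 was not lower in vehicle than in both parents: its vehicle libraries held 18.6 to 19.6 CPM, above the mean of either parent, and Palmul-tang 22.5 to 23.6.

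The excess was present at each dose. The median log2 excess of the 20 genes over the midpoint of the parents was 0.46 at 500, 0.56 at 100 and 0.40 at 20 µg/mL, and it was smaller at 20 than at 500 µg/mL in 15 of the 20. TNS1 went from 0.85 and 0.84 to 0.40. A change of the excess with dose passed the test in none of the 20 (edgeR, slope of Palmul-tang minus the midpoint of the parents' slopes, also 0 at an unadjusted p under 0.05). With 1 Palmul-tang library per dose this does not show that the excess was independent of dose, and the genes were chosen for their level over these doses. PFKFB3 exceeded the midpoint by 1.31, 1.47 and 1.06 at these doses, and BHLHE40 by 0.47, 0.54 and 0.69. All 20 genes were above the midpoint at 20 µg/mL. When each of the 21 libraries was left out in turn, 8 of the 20 kept both calls every time, among them PFKFB3, PFKFB4, PDK1, NDRG1, TUBB1, SMIM3 and PPFIA4. Summed over the calls against Sagunja-tang and against Samul-tang, ANKZF1 lost 10 calls, LOX 6, and BHLHE40, IGFBP1 and PLIN2 5 each. The same fit can count for each parent in these sums, which are therefore not numbers of fits.

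Part of the hypoxia and glycolysis list was higher in Palmul-tang. All 32 listed genes were tested, and 9 were higher than in Sagunja-tang (0.247% of all genes tested) and 7 higher than in Samul-tang (0.14%), with none lower. The median log2 difference was 0.18 from Sagunja-tang and 0.19 from Samul-tang, against 0.00 for all genes in both comparisons. At 500 µg/mL the Palmul-tang library exceeded all 6 parent libraries in 24 of the 32 genes (10% of all genes tested), at 100 µg/mL in 27 (17.1%) and at 20 µg/mL in 16 (8.73%). It was below all 6 in no member at any dose, against 9.12%, 16% and 8.14% of all genes. Most glycolytic enzymes on the list were not called. Among them PGK1 differed by 0.18 ± 0.05 and 0.16 ± 0.05 (adjusted p = 0.152 and 0.41, edgeR), and GAPDH by 0.09 ± 0.05 and 0.05 ± 0.05 (adjusted p = 0.996 and 1), while ALDOC passed against Sagunja-tang.

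**Figure D2:**
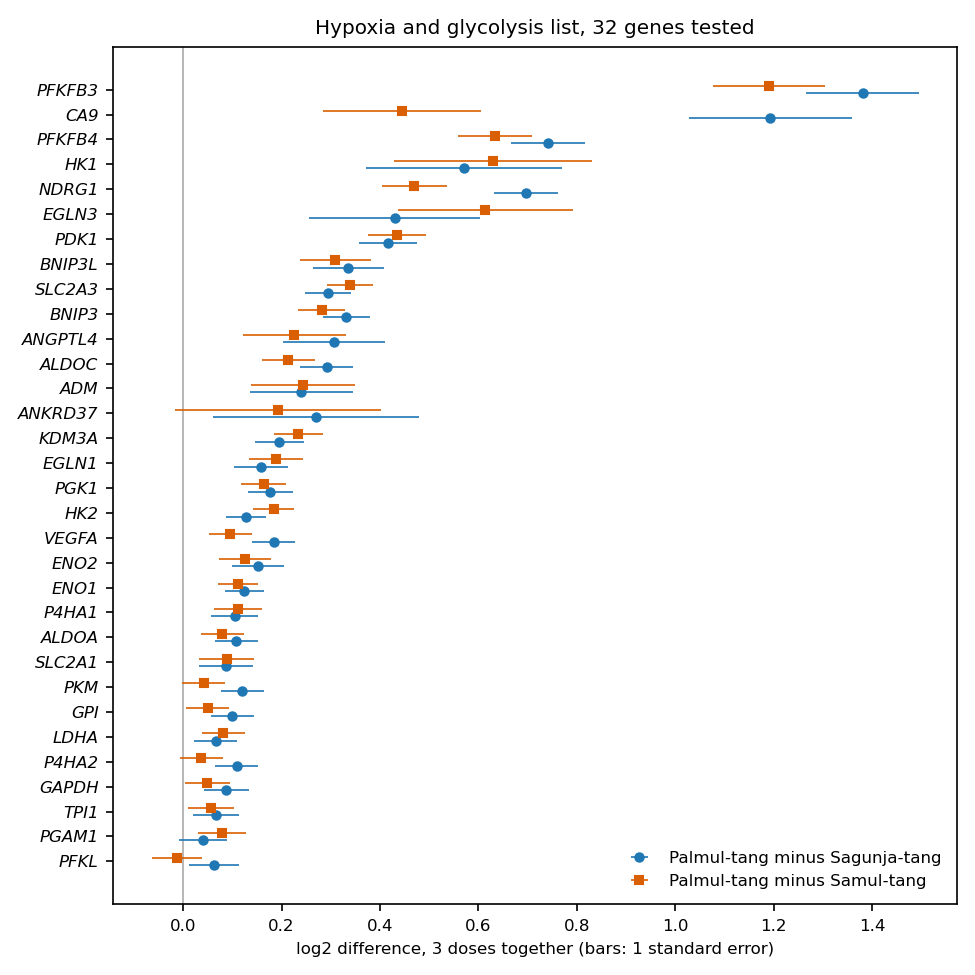
Log2 difference in level (horizontal axis) between Palmul-tang and Sagunja-tang (circles) or Samul-tang (squares) for the 32 tested genes of the hypoxia and glycolysis list, 3 doses together, with bars of 1 standard error. PFKL against Samul-tang is the only difference below 0, and PFKFB3 has the largest.

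The level of these genes also differed between code sets. With all 60 libraries on 1 scale and at 20 µg/mL, PFKFB3 lay between 8.96 and 12.3 CPM in the 6 libraries of code set 5, between 2.30 and 7.31 in the 6 of set 6, between 3.39 and 5.38 in the 6 parent libraries of set 7 and at 8.43 in Palmul-tang. Set 5 holds Cnidii Rhizoma and Rehmanniae Radix Preparata, herbs that are also ingredients of Samul-tang and so of Palmul-tang, and set 6 holds Astragali Radix and Cinnamomi Cortex, so code set and herb overlap here. At this dose the list median, as log2 ratio to the mean of the vehicle libraries, was 0.249 to 0.337 in set 5, 0.0437 to 0.320 in set 6, 0.0175 to 0.223 in set 7 and 0.341 in Palmul-tang. Palmul-tang was thus just below the span of set 5 for PFKFB3 and just above it for the list. The part of the code set or of the herb in the result was not tested.

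CA9, the membrane carbonic anhydrase and a classic HIF target, was the single gene (0.00634%) called as nearer one parent. It was at 5.69, 5.08 and 4.63 CPM in Palmul-tang by falling dose. Sagunja-tang held 1.41, 1.64 and 1.78 CPM at 500, 2.56 to 2.76 at 100 and 2.09 to 3.05 at 20 µg/mL, and Samul-tang held 2.68 to 4.05, 2.69 to 4.38 and 3.73 to 5.47. Palmul-tang was above every parent library at 500 and 100 µg/mL and inside the Samul-tang range at 20. Its difference was 1.19 ± 0.17 from Sagunja-tang (adjusted p = 2.64e-04, edgeR), 0.45 ± 0.16 from Samul-tang (adjusted p = 1) and 0.82 ± 0.15 from the midpoint. The difference between the parents, 0.75 ± 0.13, lost its call in 7 of 21 fits that left out 1 library, and the placement of CA9, which also needs the difference from the midpoint, was lost in 9 of the 21 and in the fit that blocked on replicate numbers.

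Several list members passed only against 1 parent or the midpoint, which does not show that they differ from the other parent less. ALDOC, a glycolytic aldolase, differed from Sagunja-tang by 0.29 ± 0.05 (adjusted p = 0.00727, edgeR) and from Samul-tang by 0.21 ± 0.05 (adjusted p = 0.226). KDM3A, a histone demethylase induced by HIF, passed against Samul-tang (0.23 ± 0.05, adjusted p = 0.0482) and the midpoint, but lost the first call in 15 of 21 fits that left out 1 library. BNIP3L, a relative of BNIP3, differed from Sagunja-tang by 0.34 ± 0.07 (adjusted p = 0.0402, edgeR), a call lost in 13 of those 21 fits. On the ATF4 list of 26 tested genes, STC2 and VLDLR were higher than in Sagunja-tang, at 0.30 ± 0.06 and 0.55 ± 0.11 (0.247% of all genes), calls that were each lost in 3 of the 21 fits. No member passed against Samul-tang (0.14%). SLC51A, a subunit of the bile acid exporter, was at 27.3, 28.7 and 28.4 CPM in Palmul-tang against 20.4 to 24.9 in Sagunja-tang and 21.2 to 26.6 in Samul-tang.

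Over all doses the parents themselves differed in 8 genes (0.0507%), 4 higher (0.0254%) and 4 lower (0.0254%) in Samul-tang. Besides CA9 these were CYP1A1, SPOCK2, FARP1, ADH4, GSTA1, DGKK and an unnamed pseudogene, and Palmul-tang could not be placed by the test in those 7 (0.0444%). CYP1A1, the main target of the aryl hydrocarbon receptor, was at 67.8, 21 and 14.1 CPM in Palmul-tang. Sagunja-tang held 54.6 to 61.1 CPM at 500, 14.6 to 15.5 at 100 and 11.3 to 11.7 at 20 µg/mL, and Samul-tang 78.9 to 81.8, 28.4 to 29.7 and 14.1 to 17.7. At 500 and 100 µg/mL every Sagunja-tang library was below the Palmul-tang library and every Samul-tang library above it. The log2 difference was 0.33 ± 0.08 from Sagunja-tang (adjusted p = 0.153, edgeR) and -0.29 ± 0.08 from Samul-tang (adjusted p = 0.557). ADH4 and GSTA1, liver alcohol dehydrogenase and glutathione transferase genes, differed by -0.20 ± 0.06 and -0.25 ± 0.07 from Sagunja-tang and by 0.05 ± 0.06 and 0.01 ± 0.07 from Samul-tang, none of them called.

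By called genes, the parents parted mostly at the highest dose. A fit with 1 mean per formula and dose was chosen after the data had been seen. In it 35 genes (0.222%) differed between Samul-tang and Sagunja-tang at 500 µg/mL, 1 (0.00634%) at 100 and 0 (0%) at 20. At an unadjusted p under 0.05 in edgeR the counts were 1415, 358 and 1821. This count was thus highest at 20 µg/mL, the dose of the outlying Samul-tang replicate 2 library. The 35 genes were chosen without the Palmul-tang library at 500 µg/mL, whose place can therefore be described. It was nearer the Samul-tang mean in 30 of the 35 and nearer the Sagunja-tang mean in 5, against 54.1% nearer Samul-tang over all 15766 genes. With no filter on low counts 163 genes were called and 87 of them (53.4%) were nearer Samul-tang. Of these 163 genes 158 had passed the filter, and 86 of the 158 were nearer Samul-tang. The lean to Samul-tang was thus not seen in that fit, also among genes that passed the filter. Of the 35, it lay between the parents in 26 genes, beyond Samul-tang in 9 and beyond Sagunja-tang in 0. With the Sagunja-tang mean set at -1 and the Samul-tang mean at 1, the median position was 0.63. This is 1 library, so its place in any gene has no replicate check. Without the Samul-tang 20 µg/mL replicate 2 library, which enters this fit only through the spread, 164 genes were called and Palmul-tang was nearer Samul-tang in 122.

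The widest gap was in hepcidin and other targets of BMP-SMAD signalling, which were lower in Samul-tang than in Sagunja-tang. HAMP was at 0.475, 0.383 and 0.404 CPM in Samul-tang at 500 µg/mL and at 2.65, 3.31 and 3.94 in Sagunja-tang, a log2 difference of -2.94 ± 0.26 (adjusted p = 8.12e-07, edgeR). The Palmul-tang library held 0.511 CPM, beside Samul-tang, with a position of 0.82. At 100 µg/mL HAMP was at 3.55 CPM in Palmul-tang, between 2.23 to 2.84 in Samul-tang and 4.4 to 4.8 in Sagunja-tang. At 20 µg/mL its 4.72 CPM lay below the 4.94 to 5.97 of Sagunja-tang and inside the 3.76 to 6.55 of Samul-tang.

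The inhibitors of differentiation ID1, ID2 and ID3 and the inhibitory SMAD7 are direct targets of the pathway. ID3 was at 6.33 CPM in Palmul-tang at 500 µg/mL, against 3.76 to 5.27 in Samul-tang and 15.4 to 18 in Sagunja-tang (position 0.41). ID1 was at 58.3 CPM, against 38.6 to 39.9 and 83.2 to 114 (position 0.12). ID2 was at 45.2 CPM, against 34.1 to 40.5 and 62.9 to 67 (position 0.37). SMAD7 was at 5.02 CPM, inside the 4.89 to 5.84 of Samul-tang and below the 7.87 to 9.13 of Sagunja-tang (position 1.25). Palmul-tang thus lay between the parents in the 3 ID genes, at no overlap with either, and within the Samul-tang range in SMAD7.

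**Figure D3:**
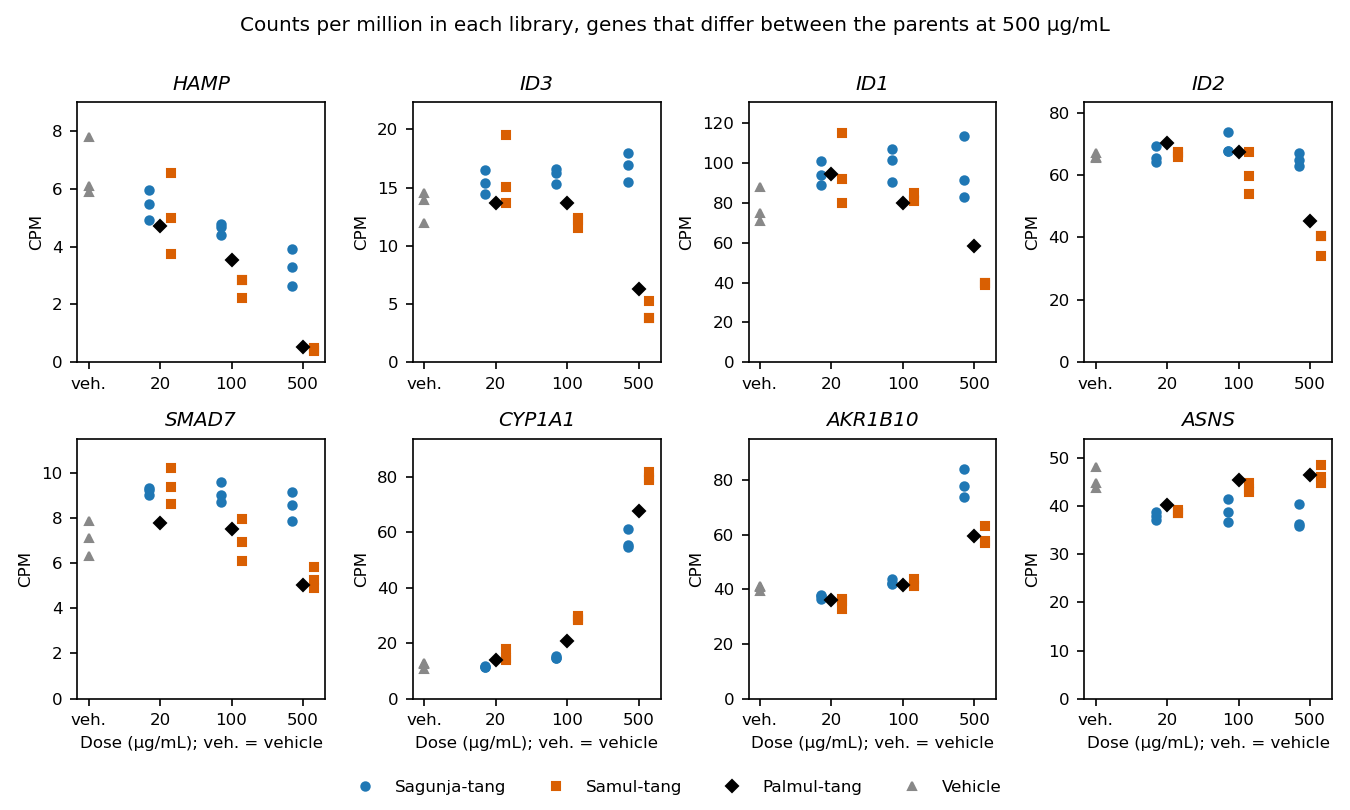
CPM (vertical axis, from 0) of 8 genes that differed between the parents at 500 µg/mL, in each library, by dose (horizontal axis, vehicle at the left), each point 1 library. At 500 µg/mL the Palmul-tang point lies near the Samul-tang points in HAMP, SMAD7, AKR1B10 and ASNS, and between the parents in ID1, ID2, ID3 and CYP1A1.

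Of the aldo-keto reductases, NRF2 targets that reduce reactive carbonyls, AKR1B10, AKR1C1 and AKR1C2 were higher in Sagunja-tang at 500 µg/mL. AKR1C3 was not among the 35 genes, and over all doses none of the 4 was called between the parents. AKR1B10 was at 59.7 CPM in Palmul-tang at 500 µg/mL, inside the 57.1 to 63.1 of Samul-tang and below the 73.9 to 84 of Sagunja-tang. AKR1C2 was at 187 CPM, against 187 to 190 and 229 to 242, and AKR1C1 at 310 CPM, against 295 to 309 and 341 to 379. NFE2L2, which encodes NRF2 itself, was at 158 CPM, against 148 to 157 in Samul-tang and 180 to 203 in Sagunja-tang. The positions of AKR1B10, AKR1C1, AKR1C2 and NFE2L2 ran from 0.68 to 1.05. ASNS, asparagine synthetase and an ATF4 target, was higher in Samul-tang, and Palmul-tang at 46.5 CPM lay inside its 44.8 to 48.5, above the 35.8 to 40.4 of Sagunja-tang. SLC7A11, the cystine importer, was at 60 CPM, against 51.3 to 62.2 in Samul-tang and 41.6 to 47.9 in Sagunja-tang.

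The 5 genes nearer Sagunja-tang were IER3, MYO10, CCL20, BMS1P4-AGAP5 and CTC-338M12.4. IER3, an early response gene that modulates cell survival, was at 62.2 CPM in Palmul-tang, inside the 59 to 68.5 of Sagunja-tang and above the 45.5 to 51.8 of Samul-tang (position -0.85). The other 4 had positions between -0.11 and -0.03, close to the midpoint. CCL20, a chemokine, was at 68.2 CPM, between 47.5 to 60.7 in Samul-tang and 76.7 to 84.6 in Sagunja-tang. Among the 9 genes beyond Samul-tang were NDRG1, which was above both parents at every dose, and CA9, at positions of 3.52 and 2.59.

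**Figure D4:**
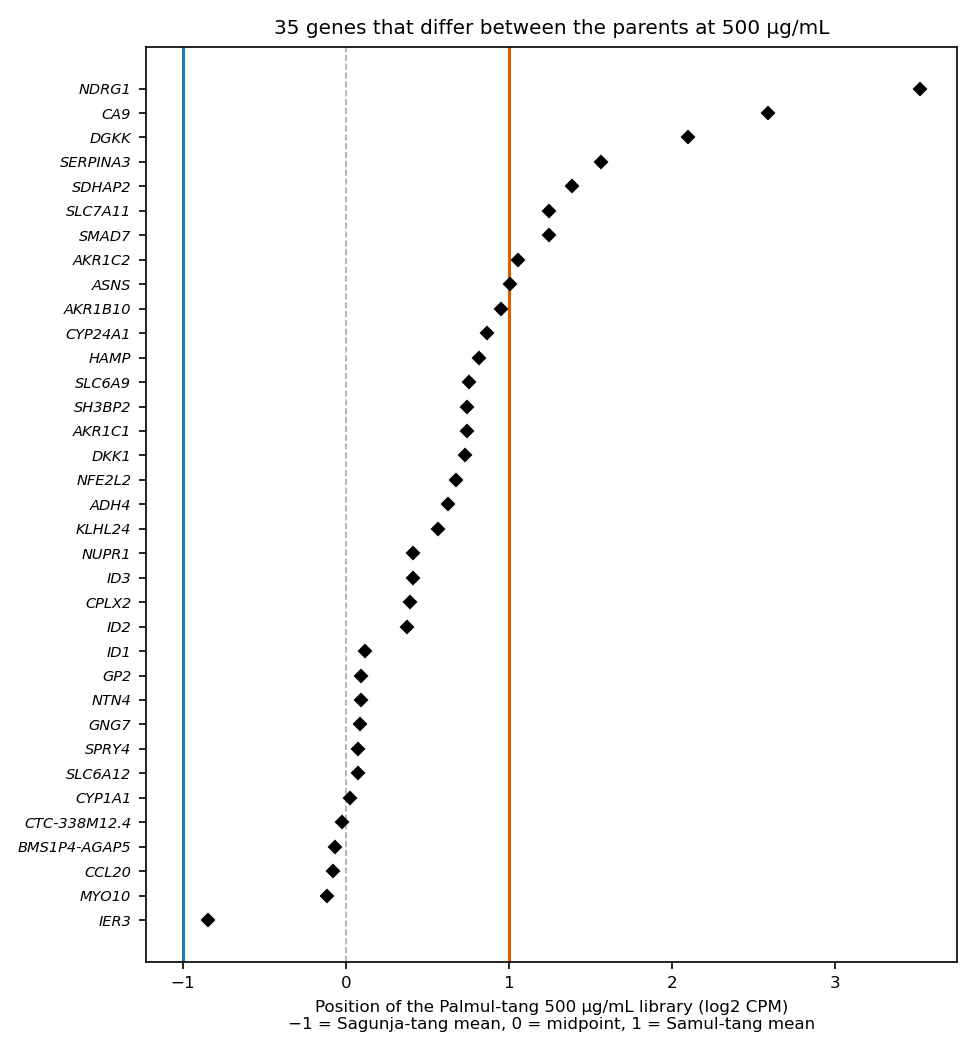
Position of the Palmul-tang 500 µg/mL library (horizontal axis, on the log2 CPM scale, with -1 the Sagunja-tang mean and 1 the Samul-tang mean) for the 35 genes that differed between the parents at that dose, 1 point per gene. 30 points lie right of 0 and 5 left of it, with IER3 at -0.85 and NDRG1 at 3.52 as the ends.

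Dose responses were then compared as slopes, the log2 change per 5-fold step in dose. In Palmul-tang 1 gene (0.00634%) had a called slope, in Sagunja-tang 408 (2.59%) and in Samul-tang 715 (4.54%). The median standard error of a slope was 0.0773 in Palmul-tang, with 3 libraries, and 0.0456 and 0.0461 in the parents, with 9 each. Without the Samul-tang 20 µg/mL replicate 2 library the counts were 1061 in Sagunja-tang and 178 in Samul-tang. The Palmul-tang gene was PAQR8, a membrane progestin receptor. It was at 26.8, 37.3 and 42.9 CPM in Palmul-tang at 500, 100 and 20 µg/mL, a slope of -0.34 ± 0.06 (adjusted p = 0.0362, edgeR). Its slope was -0.20 ± 0.03 in Sagunja-tang and -0.27 ± 0.03 in Samul-tang, both called, and its Palmul-tang call was lost in 10 of 21 fits that left out 1 library.

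Palmul-tang followed the dose direction of its parents in most genes where the parents had one. Of the 408 genes called in Sagunja-tang, 380 (93.1%) had a Palmul-tang slope of the same sign, with a median ratio to the Sagunja-tang slope of 0.51. Of the 715 called in Samul-tang, 623 (87.1%) had the same sign, with a median ratio of 0.43. Leaving out Samul-tang 20 µg/mL replicate 2, the same sign was held by 942 of 1061 genes called in Sagunja-tang (88.8%, median ratio 0.47) and 174 of 178 called in Samul-tang (97.8%, 0.67). Over all genes tested, with that library, the same-sign shares were 62.1% and 59.7%. For comparison, Samul-tang had the same sign as Sagunja-tang in 364 of the 408 (median ratio 0.55) and Sagunja-tang the same as Samul-tang in 616 of the 715 (0.46). A ratio below 1 is in part set by the choice of genes, which were called on the parent in the denominator. Of the 136 genes called in both parents with 1 sign, 134 had that sign in Palmul-tang, at median ratios of 0.67 and 0.66. Without the Samul-tang 20 µg/mL replicate 2 library 93 of 95 such genes did, at ratios of 0.74 and 0.74. Across 11975 genes of at least 2 CPM, the slopes of Palmul-tang correlated with those of Sagunja-tang at r = 0.350 and with those of Samul-tang at r = 0.312, and the parents with each other at r = 0.362. These are descriptions over genes, which share libraries and are not independent.

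**Figure D5:**
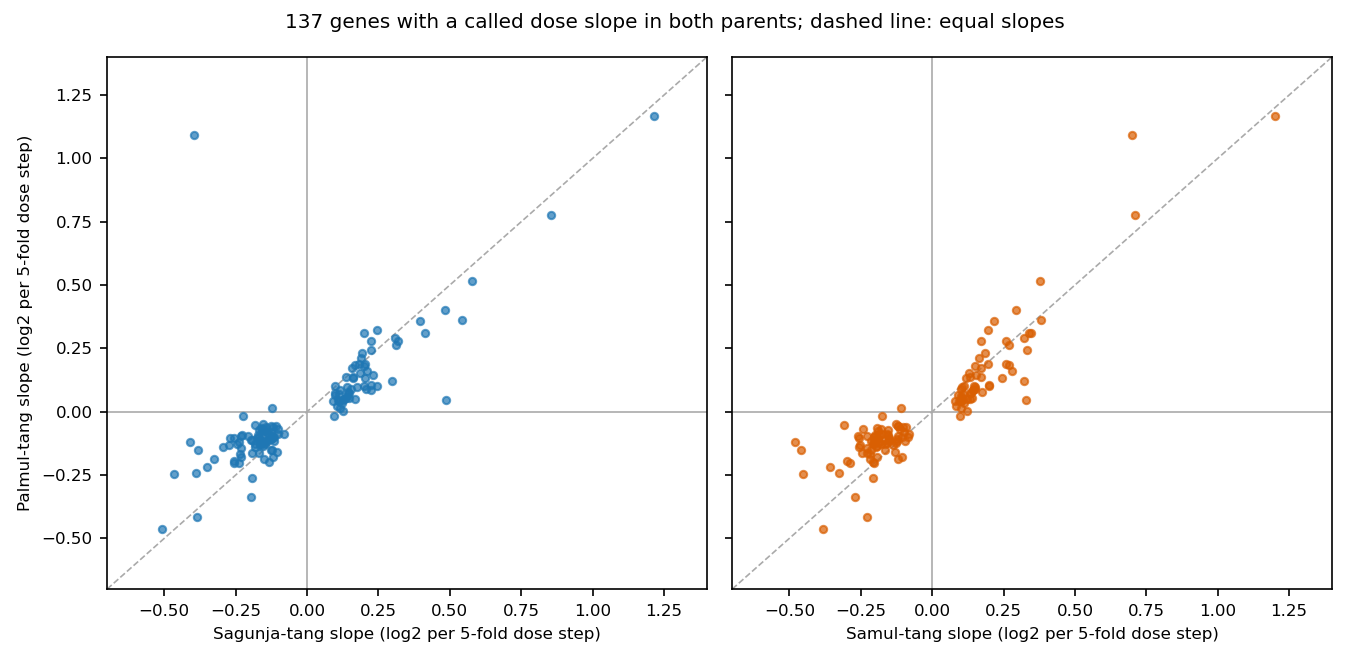
Dose slope of Palmul-tang (vertical axis) against that of Sagunja-tang (left) and Samul-tang (right), in log2 change per 5-fold dose step, for the 137 genes with a called slope in both parents, 1 point per gene. Slopes have the same sign in Palmul-tang and Sagunja-tang for 134 genes, most points lie nearer 0 than the dashed line of equal slopes, CYP1A1 is the point at the upper right, and BMS1P4-AGAP5 the one at the upper left of the left panel.

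No slope of Palmul-tang differed from the midpoint of the parents' slopes or from the Samul-tang slope (0%, edgeR, 349 and 555 genes at an unadjusted p under 0.05, also 0 and 0 with DESeq2), and 1 (0.00634%) differed from the Sagunja-tang slope. That gene was BMS1P4-AGAP5, a readthrough transcript of near-identical segmental copies whose read assignment is uncertain. It was at 2.21, 1.94 and 0.323 CPM in Palmul-tang by falling dose, at 1.45 to 1.65, 1.73 to 2.31 and 2.65 to 2.86 in Sagunja-tang, and at 2.81 to 3.93, 1.63 to 2.23 and 0.957 to 1.69 in Samul-tang. Without the Palmul-tang 20 µg/mL library the difference in slope fell from 1.49 to 0.58 and was not called.

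Metallothioneins, small proteins that buffer zinc and copper, fell with dose in the parents. Of 9 tested genes on the metallothionein and zinc export list, 6 fell in Sagunja-tang (1.29% of all genes) and 5 in Samul-tang (2.87%), at median slopes of -0.38 and -0.33. In Palmul-tang none was called (0%), 8 of the 9 had slopes below 0, and the median was -0.24. When Samul-tang 20 µg/mL replicate 2 was left out, 7 fell in Sagunja-tang (3% of all genes) and 2, MT2A and MT1X, in Samul-tang (0.73%). MT1X was at 27.3, 40.3 and 48.6 CPM in Palmul-tang by falling dose, at 22.1 to 25, 31.3 to 37.7 and 39.5 to 40.5 in Sagunja-tang, and at 24.6 to 30.1, 35.4 to 38.5 and 37.9 to 39.4 in Samul-tang. Its Palmul-tang slope was -0.41 ± 0.08 (adjusted p = 0.129), beside -0.38 ± 0.05 and -0.23 ± 0.05 in the parents.

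Of 7 tested targets of the aryl hydrocarbon receptor, 3 rose with dose in each parent (1.3% and 1.67% of all genes): CYP1A1, ALDH3A1 and NQO1. The CYP1A1 slope was 1.17 ± 0.21 in Palmul-tang (adjusted p = 0.143), 1.22 ± 0.13 in Sagunja-tang and 1.20 ± 0.12 in Samul-tang. ALDH3A1, an aldehyde dehydrogenase, had a slope of 0.78 ± 0.16 in Palmul-tang (adjusted p = 0.138), 0.85 ± 0.09 in Sagunja-tang and 0.71 ± 0.09 in Samul-tang. NQO1, a quinone reductase shared with NRF2, had 0.26 ± 0.07 (adjusted p = 0.542), 0.31 ± 0.04 and 0.27 ± 0.04. Leaving out Samul-tang 20 µg/mL replicate 2 kept these 3 calls in each parent, and the ALDH3A1 slope was then called in Palmul-tang too. Of 22 NRF2 and antioxidant genes, 12 rose in Sagunja-tang and 11 in Samul-tang, where 1 fell. In the same fit 14 NRF2 and antioxidant genes rose in Sagunja-tang (3.74% of all genes) and 11 in Samul-tang (0.4%), where 1 fell. In Palmul-tang none was called, 20 of the 22 slopes were above 0 (50.2% of all genes), and the median was 0.09, beside 0.13 and 0.10.

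Targets of BMP-SMAD signalling fell with dose in Samul-tang. Of the 14 tested genes of the iron and BMP-SMAD list 6 fell there (HAMP, ID1, ID2, ID3, SMAD7 and TFR2, 2.87% of all genes) and 1 in Sagunja-tang (SLC40A1, the iron exporter, 1.29%). In the fit without Samul-tang 20 µg/mL replicate 2, 5 fell in Samul-tang (0.73%), TFR2 no longer among them, and 2 in Sagunja-tang (TFR2 and SLC40A1, 3%). Between the parents 5 slopes differed over all genes (0.0317%), 4 of them lower in Samul-tang (0.0254%), and ID3 was the only member of the list among them (-0.95 ± 0.15, adjusted p = 0.0272, edgeR), a call lost in 10 of 21 fits that left out 1 library. For the other 13 genes the slopes of the parents were not shown to differ. The HAMP slope was -1.28 ± 0.28 in Palmul-tang (adjusted p = 0.374), -1.50 ± 0.18 in Samul-tang and -0.36 ± 0.13 in Sagunja-tang (adjusted p = 0.183). For ID3 the slopes were -0.53 ± 0.18, -0.89 and 0.06 in the same order, and for SMAD7 -0.31 ± 0.09, -0.41 and -0.05. Palmul-tang lay between the parents in these 3 genes, but none of its slopes was called.

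Some lipid synthesis genes fell with dose in the parents. Of 22 cholesterol synthesis genes 3 fell in Sagunja-tang (1.29% of all genes) and 9 in Samul-tang (2.87%). In Palmul-tang none was called, and 21 of 22 slopes were below 0 (median -0.07), against 49.8% of all genes. Of 16 fatty acid synthesis genes 4 fell in Sagunja-tang and 5 in Samul-tang, beside the same shares of all genes. In Palmul-tang none was called, and 15 of 16 slopes were below 0 (median -0.10). After removal of Samul-tang 20 µg/mL replicate 2, 11 cholesterol and 6 fatty acid synthesis genes fell in Sagunja-tang (3% of all genes) and 7 and 4 in Samul-tang (0.73%).

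On the DNA replication and mitosis lists no gene was called in level between Palmul-tang and either parent, with medians of -0.07 and -0.06 from Sagunja-tang and -0.02 and 0.02 from Samul-tang. At 100 µg/mL the Palmul-tang library was below all 6 parent libraries in 14 of 30 DNA replication genes, 5 of 27 mitosis genes and 20 of 53 cytosolic ribosomal protein genes, against 16% of all genes. At 500 µg/mL it was below them in 6, 4 and 2 of these genes (9.12% of all genes) and above them in 0, 0 and 3 (10%), and at 20 µg/mL it was below in 1, 1 and 3 (8.14%). The heat shock, unfolded protein response, NF-kB, p53, coagulation, acute phase, drug metabolism, cytosolic ribosomal protein and mitochondrial genome lists also had no gene called in level against either parent, with medians between -0.06 and 0.03. The immediate early list had no call either, but its medians were 0.12 from Sagunja-tang and 0.05 from Samul-tang. At 500 µg/mL the Palmul-tang library was above all 6 parent libraries in 10 of its 18 genes (10% of all genes). At 100 µg/mL this held for 3 (17.1%) and at 20 µg/mL for 0 (8.73%).

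Over the whole transcriptome Palmul-tang was not measurably nearer one parent. The root mean square difference in log2 CPM from the Palmul-tang library of the same dose was 0.372 ± 0.024 (SD, n = 9) for Samul-tang libraries and 0.359 ± 0.014 (SD, n = 9) for Sagunja-tang libraries. The difference of 0.0134 was within what relabelling gives (exact permutation test over 8000 assignments within doses, two-sided p = 0.188). At single doses p was 1 at 500, 0.3 at 100 and 0.6 at 20 µg/mL, where 3 against 3 libraries cannot go below 0.1. The farthest parent library was Samul-tang 20 µg/mL replicate 2, at 0.422, and without it the difference was 0.0072 (exact permutation p = 0.278). Replicates of 1 parent at 1 dose lay 0.341 to 0.445 apart, so over all genes tested the distances to Palmul-tang were of the size of those between replicates. Among genes with a mean of at least 10 CPM the distances were 0.133 for Samul-tang and 0.125 for Sagunja-tang (exact permutation p = 0.884). Distances between replicates were not taken for those genes, and weakly expressed genes thus weigh heavily in the comparison over all genes.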

How the data were processed

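The table deposited by the authors holds expected counts per gene (60675 genes), as RSEM estimates them and not normalized. The submitters' processing notes name RSEM 1.3.3, STAR 2.7.3a, FastQC 0.11.9 and Trim Galore 0.6.5 and build GRCh38, with no role or order given. Columns were matched to samples by the code in the sample description, and 210 columns without a sample here were not used. Of the values used, 8.61% were not whole, and all were rounded. Genes were filtered with filterByExpr and scaled by TMM over 24 libraries (edgeR 4.0.16, R 4.3.3), leaving 15766, and vehicle libraries were not in the fit. Levels used an additive dose factor with 3 levels, slopes 1 intercept and 1 slope on log dose per formula. P-values are from robust quasi-likelihood tests, two-sided, with Benjamini-Hochberg adjustment over all genes. DESeq2 1.42.0 was an alternative, and its missing adjusted p-values were kept as missing. The other alternatives were other size factors, no filter, a replicate block, fits of 2 formulas, 1 mean per formula and dose, replicate 1 of the parents only, and each library left out. Functions were tested on simulated data.

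The text names genes of at least 2 CPM by rule: the 8 with the largest smaller difference above both parents, genes on a parent's side, genes with called Palmul-tang slopes, and up to 4 (levels) and 2 (slopes) per list. The other genes above both parents, those called against 1 parent and those of the fit at single doses were named after their values were seen, and 1 gene above both parents is counted but not reported here. Formulas, members and the 29 gene lists (552 genes, 501 tested) were chosen with earlier results of these data known. Gene symbols come from a gene name reference (56558 IDs matched), or from GENCODE 29 where that had none. GENCODE 29 (57055 IDs matched) also gave gene types and positions. Counts are reads assigned by estimate, so near-identical copies share them.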

Additional observations from a re-analysis of the deposited data

Results flagged for a closer look

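Dose slopes differed between formulas by a test of the difference itself (edgeR's quasi-likelihood test, log2 per 5-fold dose step) in 5 genes. BMS1P4-AGAP5 had a slope 1.49 higher in Palmul-tang than in Sagunja-tang (adjusted p = 0.0318) and 1.09 higher in Samul-tang than in Sagunja-tang (1.095, adjusted p = 0.00261). The Palmul-tang part rested on the 20 µg/mL library, at 0.323 CPM, and was lost in 9 of 21 fits that left out 1 library, while the difference between the parents kept its call in all 21. Between the parents, the slope in Samul-tang was lower than in Sagunja-tang for ID3 (-0.95, adjusted p = 0.0272), IER3 (-0.26, adjusted p = 0.0295), CPLX2 (-0.24, adjusted p = 0.0206) and SPRY4 (-0.26, adjusted p = 0.0206). Leaving out 1 library ended the call in 10 of 21 fits for ID3, 7 for IER3, 6 for CPLX2 and 7 for SPRY4. At 500 µg/mL the Palmul-tang library was nearer Samul-tang in ID3, CPLX2 and SPRY4 (positions 0.41, 0.39 and 0.08) and nearer Sagunja-tang in IER3 (-0.85). The groups had 1 or 3 libraries per dose, so no search for single outlying libraries was made.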

How the results depend on the processing

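The order of the parents' slope counts reversed without Samul-tang 20 µg/mL replicate 2, from 408 in Sagunja-tang and 715 in Samul-tang to 1061 and 178. With no filter on low counts, more genes were called: 156 against the midpoint, 175 against Sagunja-tang, 153 against Samul-tang, 225 between the parents, 54 above both (all 20 reported among them), 36 below both where 0 were reported, 8 on each parent's side, slopes 7 in Palmul-tang, 2 against Samul-tang and 14 between the parents, and 163 between the parents at 500 µg/mL, where the share nearer Samul-tang was 53.4% in place of 85.7%. The cause was not tested. DESeq2 called 34 genes against Samul-tang, 72 between the parents (74 at 500 µg/mL) and 3 below both, and slopes of 7 genes in Palmul-tang, 650 in Sagunja-tang, 1211 in Samul-tang and 33 between the parents. Of its 25 genes above both, 20 were those reported. Fits of 2 formulas gave 67 against Sagunja-tang and 5 between the parents, with slopes of 0 against Sagunja-tang and 8 between the parents. With 1 mean per formula and dose 25 differed between the parents and 1 was below both. With replicate 1 of the parents only, 1 differed between the parents, 3 were below both and 0 were on the Samul-tang side, while 14 of the 20 stayed above both. The cause of these shifts was not tested.

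The replicate numbers gave little sign of pairing the libraries: 2 of 9 pairs had deviations correlated above 0.1 (range -0.116 to 0.202), and 2 matched best with their own number. These 9 pairs are too few to exclude a pairing. With the replicate block, 20 genes were called against the midpoint, 15 (all among the 20) above both and 0 on the Samul-tang side. Called slopes then rose from 408 to 513 in Sagunja-tang and from 715 to 1092 in Samul-tang.

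Leaving out 1 library gave 15 to 52 genes against the midpoint, 14 to 69 against Sagunja-tang, 11 to 36 against Samul-tang, 1 to 16 between the parents, 8 to 30 above both, 0 to 1 below both and 0 to 1 on the Samul-tang side. Slopes ranged from 0 to 5 genes in Palmul-tang, 196 to 1061 in Sagunja-tang, 178 to 1564 in Samul-tang, 0 to 1 against Sagunja-tang and 1 to 13 between the parents. At 500 µg/mL 19 to 164 genes differed between the parents, with 70 to 89.5% nearer Samul-tang. The difference in distance was 0.0072 to 0.0173. The highest level counts came without Samul-tang 20 µg/mL replicate 2, the lowest against the midpoint and Sagunja-tang without Palmul-tang 100 µg/mL and against Samul-tang without Palmul-tang 500 µg/mL. With 1 Palmul-tang library per dose, small differences from a parent may have gone uncalled. The smallest log2 difference from the midpoint among the 20 genes above both was 0.25.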
